A study of Mus musculus with 9 samples.

Results

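The genes described here encode subunits of voltage-gated sodium channels, the proteins that carry the rising phase of the action potential: the alpha subunits Scn1a, Scn2a, Scn8a and Scn9a and the beta subunits Scn2b, Scn3b and Scn4b. Members were all probe sets that the array annotation assigns to one of these 7 symbols and to no other gene. The array annotation covers 18193 genes in this way. The members came to 23 of the 45037 probe sets that are not controls, 17 for alpha and 6 for beta subunits. The samples were 9 single-channel Affymetrix mouse expression arrays in 3 groups of 3. SOD1-mutant motor neurons were laser-captured from mice carrying a mutant SOD1, the superoxide dismutase gene mutated in some inherited forms of amyotrophic lateral sclerosis. Wild-type motor neurons were laser-captured from mice of the normal genotype, and wild-type cord was whole spinal cord RNA. The labels describe all samples as ventral spinal cord in one field and the cord samples as total cord in another. They state neither the SOD1 allele and its promoter nor the strain, sex or age of the animals. All sample titles carry a shared code whose meaning is not given. Each sample is described as coming from a mouse, and whether the 3 of a group came from separate animals is not stated, so a p-value here reflects array-to-array spread that could be technical.

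The alpha subunit forms the pore and can conduct on its own, and the beta subunits are single-pass membrane proteins that alter gating, membrane targeting and adhesion. In central neurons the Scn8a channel is concentrated at the mature axon initial segment and at nodes of Ranvier, the Scn2a channel is prominent in unmyelinated axons and in young initial segments, and the Scn1a channel is prominent in inhibitory interneurons and is also known from motor neurons. The Scn9a channel is best known from peripheral sensory and sympathetic neurons. The Scn2b and Scn4b proteins bind the alpha subunit through a disulphide bond and the Scn3b protein binds it without one. The Scn4b protein is also known for promoting resurgent current, a brief inward current on repolarisation that favours repetitive firing.

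Values are signal intensities on the linear scale of the deposited table, in which every array had been scaled to the same trimmed mean. Differences are log2 values with 20.3 added to each intensity, and a probe set is called changed where the Benjamini-Hochberg adjusted p of the limma fit over 27022 tested probe sets was under 0.05. Nonspecific signal was read on each array from 27 Bacillus subtilis probe sets, whose 95th percentile lay between 131 and 244 and is called background. Median intensity was 274 to 366 in SOD1-mutant motor neurons, 269 to 313 in wild-type motor neurons, and cord arrays reached 556 to 583. The log2 ratio of the 3′ to the 5′ Gapdh control probe sets averaged 4.49 ± 0.15 in SOD1-mutant motor neurons, 4.03 ± 0.44 in wild-type motor neurons and -0.28 ± 0.01 in cord (SD, n = 3 each), so the 5′ signal of this transcript was low beside its 3′ signal in both captured groups. Positions of the probes within their transcripts were not used here, and the part of this 3′ bias in the differences between probe sets of a gene was not tested. The captured samples carried motor neuron markers: 8 of 10 tested markers were called higher than in cord in each captured group, and their summed intensity was 180153 to 184543 in SOD1-mutant motor neurons, 199171 to 214135 in wild-type motor neurons, against 15804 to 22856 in cord. Fewer cells of a type and less RNA per cell cannot be told apart in these samples.

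Captured motor neurons differed from whole cord in both directions across the subunit genes. On the brightest probe set of each gene, Scn1a, Scn9a and Scn4b were called higher in the neurons and Scn2a, Scn2b and Scn3b lower. The probe sets of Scn8a were divided. Brightest means the highest mean of the 3 group means, so groups where a probe set is high weigh in the choice. For Scn9a this chose 1442333_a_at, with a mean of 93.8 in cord. Another, 1442810_x_at, had 881 in cord and was called in neither comparison. In SOD1-mutant motor neurons against cord, 8 of the 19 tested probe sets were called higher and 7 lower, where 21.9% of all tested probe sets were called higher and 40.2% lower. In wild-type motor neurons against cord, 9 were called higher and 7 lower, where the shares over all tested probe sets were 24.0% higher and 41.5% lower. The median log2 difference of the 19 was 0.50 in SOD1-mutant motor neurons, against -0.37 over all probe sets, and 0.30 in wild-type motor neurons, against -0.35 over all. Under the deposited scaling the share called lower, 36.8% in either comparison, was close to that of all probe sets. With arrays centred on their medians, 11 were called higher and 6 lower in SOD1-mutant motor neurons, where 42.9% and 19.1% of all were. In wild-type motor neurons centring gave 11 higher and 7 lower, where 47.9% and 19.5% of all were. Both comparisons share the 3 cord arrays and are given side by side only.

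**Figure D1:**
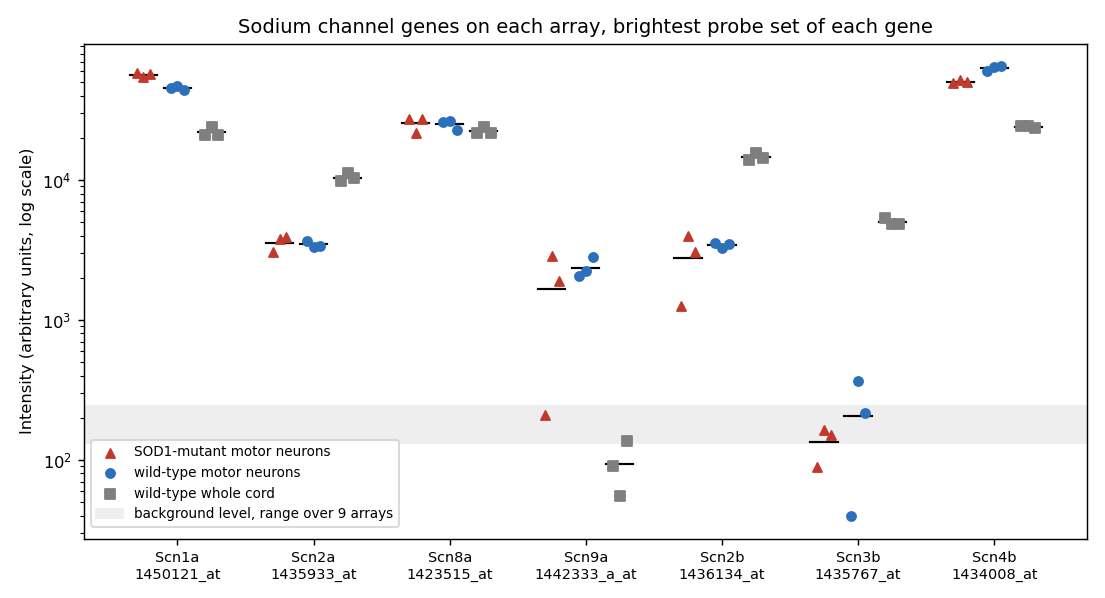
Signal intensity (log axis) of the brightest probe set of each of the 7 genes on the 9 arrays, with SOD1-mutant motor neurons left of wild-type motor neurons and cord on the right. Points are arrays, black lines are group means, and the grey band is the range of background over arrays, 131 to 244. Scn3b lay at or near the band in both captured groups, Scn9a lay within or under it in cord, and the 3 groups overlapped for Scn8a.

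Of the 23 probe sets, 19 passed the filter on low signal, which asked for a mean log2 value over the group means above 7.68. The closest inside was a Scn2a probe set (1427281_at) at 7.86 and the closest outside a Scn2b probe set (1457144_at) at 7.34. The other 3 left out were 1442208_at for Scn8a, which lay below background on all 9 arrays at 8.18 to 39.5, 1421660_at for Scn9a and 1426328_a_at for Scn3b. The Scn9a one had 31.8 to 96.6 in SOD1-mutant motor neurons, 93.5 to 222 in wild-type motor neurons and, in cord, 63.5 to 250.3. The Scn2b one had 43.8 to 227 in SOD1-mutant motor neurons, 31.8 to 299 in wild-type motor neurons and, in cord, 65.3 to 376. Both reached into background in every group. Of the probe sets inside the filter, 1427281_at passed through its cord signal. Its mean was 104 in SOD1-mutant motor neurons, 20.1 in wild-type motor neurons and 3201 in cord. The tested Scn3b probe set also passed through cord, with means of 134, 207 and 5024 in the same order. These Scn2a and Scn3b probe sets count among those called lower in both comparisons with cord. Scn9a 1442333_a_at passed through its signal in the captured groups instead. Its mean was 1650 in SOD1-mutant motor neurons, 2366 in wild-type motor neurons and 93.8 in cord. It counts among those called higher in both comparisons.

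Scn1a was higher in motor neurons on each of its 3 probe sets. On its brightest, 1450121_at, the intensity was 58023, 54074 and 57097 in SOD1-mutant motor neurons, 45142, 46702 and 44295 in wild-type motor neurons and 20953, 24020.0 and 20864 in cord. The 3 groups did not overlap, with SOD1-mutant arrays on top and cord arrays at the bottom. SOD1-mutant motor neurons exceeded cord by 1.36 ± 0.10 on the log2 scale (SE), or 2.57-fold (adjusted p = 1.11e-05), and wild-type motor neurons by 1.05 ± 0.08, or 2.07-fold (adjusted p = 6.49e-06). A second probe set, 1441728_at, gave 3892, 1325 and 2243 in SOD1-mutant motor neurons, 3751, 3184 and 3125 in wild-type motor neurons and 588, 620 and 714 in cord. It was 3.47-fold higher than in cord in SOD1-mutant (adjusted p = 0.00243) and 5.10-fold higher in wild-type motor neurons (adjusted p = 4.19e-06), and the captured groups overlapped. The third, 1450120_at, varied more between captured arrays, at 8603 to 15127 in SOD1-mutant and 7843 to 18249 in wild-type motor neurons against 5908 to 6331 in cord, and was called higher in SOD1-mutant (1.90-fold, adjusted p = 0.00319) and in wild-type motor neurons (1.94-fold, adjusted p = 0.00947).

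Scn2a was lower in motor neurons on 3 of its 4 probe sets. The brightest, 1435933_at, had 3037, 3777 and 3887 in SOD1-mutant motor neurons, 3646, 3337 and 3393 in wild-type motor neurons and 9759.5, 11156 and 10265 in cord. The captured groups overlapped each other and both lay below every cord array. The log2 difference from cord was -1.54 ± 0.13 in SOD1-mutant motor neurons (2.92-fold lower, adjusted p = 2.52e-05) and -1.58 ± 0.10 in wild-type motor neurons (2.99-fold lower, adjusted p = 2.23e-06). On 1427281_at SOD1-mutant motor neurons had 68.3, 23.0 and 221, wild-type motor neurons 11.1, 28.3 and 20.9 and cord 3434, 3333 and 2835. In the mutant 2 of 3 arrays lay below background, and in wild-type motor neurons all 3 did. SOD1-mutant motor neurons were called lower than cord (adjusted p = 9.42e-05), with no fold given because 1 array alone was measured above background, and wild-type motor neurons were at least 20.1-fold lower (adjusted p = 8.73e-07). The fourth probe set, 1445259_at, had 210 to 304 in SOD1-mutant motor neurons, 215 to 525 in wild-type motor neurons and, in cord, 396 to 520. It was called in neither (adjusted p = 0.0737 in the mutant and 0.527 in wild type), though the mutant was called lower with no intensity trend (adjusted p = 0.0156), with REML array weights (0.0204) and with values raised to background (0.0371).

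One Scn2a probe set separated all 3 groups. On 1427280_at SOD1-mutant motor neurons had 1794, 2695 and 1864, wild-type motor neurons 1487, 1237 and 1051 and cord 3269, 3323 and 3338, with no overlap between any groups. The log2 difference from cord was -0.66 ± 0.18 in SOD1-mutant motor neurons (adjusted p = 0.0115) and -1.40 ± 0.16 in wild-type motor neurons (adjusted p = 7.52e-05). The mutant difference depended on the scaling of the arrays, at 0.18 with arrays centred on their medians (adjusted p = 0.34) and -0.14 after quantile normalisation (adjusted p = 0.525).

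The Scn1a and Scn2a genes lie on chromosome 2 with 3 protein-coding genes between them in RefSeq order, next to Scn9a and Scn3a. Their windows from 250 bases before to 50 after the transcription start are shown because the genes moved in opposite directions against cord. They were taken from RefSeq for GRCm38.p6, chr2:66440788-66441087 on the minus strand for Scn1a and chr2:65620519-65620818 on the plus strand for the first of 2 Scn2a windows, and capitals mark a CCAAT match.
Scn1a: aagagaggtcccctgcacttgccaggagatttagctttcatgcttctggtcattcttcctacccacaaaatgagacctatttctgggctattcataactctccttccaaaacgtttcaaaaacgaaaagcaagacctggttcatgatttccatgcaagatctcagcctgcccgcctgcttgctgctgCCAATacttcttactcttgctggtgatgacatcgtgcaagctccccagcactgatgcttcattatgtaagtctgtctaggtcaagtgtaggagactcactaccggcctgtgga
Scn2a: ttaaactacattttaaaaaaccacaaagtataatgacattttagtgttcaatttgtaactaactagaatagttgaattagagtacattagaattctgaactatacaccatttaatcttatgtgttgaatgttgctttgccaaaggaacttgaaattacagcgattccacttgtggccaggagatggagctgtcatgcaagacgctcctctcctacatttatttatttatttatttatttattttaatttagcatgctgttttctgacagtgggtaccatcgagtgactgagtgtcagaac

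The Scn1a window held the letters CCAAT 63 bases before the start, with 47.3% G and C and 5 CpG dinucleotides. The first Scn2a window held none of the letters searched, with 33.0% G and C and 3 CpG, against medians of 52.7% and 7 over all 32851 windows. The second Scn2a window, not shown, had 47.7% G and C and 9 CpG, so the contrast in composition with Scn1a depended on the window. The search covered both strands. Of all windows of this length, 13.6% hold the TATA box letters TATAAA, 35.7% the GC box letters GGGCGG and 37.4% the letters CCAAT. The left part of the REST site, TTCAGCACC, is held by 0.371% and the core of the cyclic AMP element, TGACGTCA, by 1.79%. A match is only a description of the sequence, and the arrays do not bear on binding.

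Scn8a, the main channel of mature nodes and initial segments, differed from cord in a way that depended on the probe set. The brightest, 1423515_at, gave 27329, 21508 and 27219 in SOD1-mutant motor neurons, 25759, 26596 and 22936 in wild-type motor neurons and 21694, 23862 and 21541 in cord. All 3 groups overlapped. The log2 difference from cord was 0.17 ± 0.12 in SOD1-mutant motor neurons, with a 95% interval of -0.11 to 0.45 (adjusted p = 0.246), and 0.16 ± 0.09 in wild-type motor neurons, with an interval of -0.03 to 0.36 (adjusted p = 0.122). Without SOD1-mutant array 2 the mutant difference was 0.29 and called (adjusted p = 0.0221). The direction of the wild-type difference turned with the scaling, to -0.22 after quantile normalisation (adjusted p = 0.0364), and with arrays centred on their medians the difference was 1.02 in the mutant (adjusted p = 0.00225) and 1.07 in wild type (adjusted p = 3.44e-05). Array weights also called the mutant difference (adjusted p = 0.00164 by REML and 0.0151 gene by gene). Those weights were 4.33 and 1.84 on SOD1-mutant array 3 and at most 0.256 on the other mutant arrays. By contrast 1457412_at was higher in the neurons, at 20096, 20740.4 and 14831 in SOD1-mutant, 14389, 19930 and 16024 in wild-type and 6927, 8456 and 9220 in cord. It exceeded cord 2.25-fold in SOD1-mutant (adjusted p = 0.000369) and 2.04-fold in wild-type motor neurons (adjusted p = 0.000289), without overlap.

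The 2 remaining tested Scn8a probe sets went opposite ways. Motor neurons were far below cord on 1451894_a_at, with 541, 237 and 349 in SOD1-mutant and 603, 196 and 433 in wild-type motor neurons against 7301, 7200 and 6935 in cord. With 1 SOD1-mutant array below background, the difference was 19.0-fold in SOD1-mutant (adjusted p = 5.69e-06) and 18.2-fold in wild-type motor neurons (adjusted p = 9.51e-06). On 1439889_at the neurons were slightly higher, with 9898, 8913 and 9514 in SOD1-mutant, 7679, 8380 and 8632 in wild-type and 6719, 6493 and 6793 in cord. The log2 difference was 0.50 ± 0.10 in SOD1-mutant motor neurons (adjusted p = 0.00295) and 0.30 ± 0.09 in wild-type motor neurons (adjusted p = 0.0167). The wild-type call was lost on leaving out any of the 3 cord arrays or wild-type captured array 3, with adjusted p values of 0.053 to 0.0628.

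Scn9a was higher than in cord on 2 of its 4 tested probe sets in SOD1-mutant and on 3 of 4 in wild-type motor neurons. Its brightest, 1442333_a_at, had 210, 2842 and 1897 in SOD1-mutant motor neurons, 2049, 2253 and 2797 in wild-type motor neurons and 90.0, 55.0 and 136 in cord. Every cord array lay below background, and SOD1-mutant array 1 stood far under the other captured arrays. The neurons were at least 6.28-fold higher than cord in the mutant (adjusted p = 0.0101) and at least 13.7-fold higher in wild type (adjusted p = 6.48e-06). The mutant limit rests on single arrays: it was 13.6-fold without SOD1-mutant array 1, 3.86-fold without array 2 and 4.72-fold without array 3, and the call was lost without array 3 (adjusted p = 0.0523). On 1457819_at the values were 413, 1488 and 828 in SOD1-mutant motor neurons, 1586, 1480 and 952 in wild-type motor neurons and 360, 122 and 253 in cord, without overlap between neurons and cord, and 1 cord array was below background. SOD1-mutant motor neurons exceeded cord 3.34-fold (adjusted p = 0.0205) and wild-type motor neurons 5.41-fold (adjusted p = 0.000666), and the mutant call was lost without cord array 2 or SOD1-mutant array 2 or 3 (adjusted p = 0.0658, 0.0572 and 0.0643).

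The remaining Scn9a probe sets were less even. On 1442809_at SOD1-mutant motor neurons had 341 to 1048, wild-type motor neurons 503 to 864 and, in cord, arrays gave 153 to 283. Of the cord arrays 1 lay below background. The 2.33-fold difference of SOD1-mutant motor neurons from cord missed the threshold (adjusted p = 0.0532), and wild-type motor neurons were called 2.88-fold higher (adjusted p = 0.00491). The mutant difference was called without SOD1-mutant array 1 (adjusted p = 0.0267) and under 7 other settings: quantile normalisation (0.00476), median centring (0.00251), the larger pseudocount (0.0485), the fit of all 9 arrays (0.031), values raised to background (0.0312) and REML or gene-by-gene array weights (0.0157 and 0.0467). On 1442810_x_at the 3 groups overlapped, with 553 to 2566 in SOD1-mutant motor neurons, 835 to 2157 in wild-type motor neurons and, in cord, 421 to 1306. Neither difference was called (adjusted p = 0.437 in SOD1-mutant and 0.133 in wild-type motor neurons). Both were called after quantile normalisation (adjusted p = 0.0492 in the mutant and 0.00865 in wild type) and median centring (adjusted p = 0.0419 and 0.00811 likewise), and the wild-type one without wild-type captured array 2 (adjusted p = 0.0287). The wild-type difference was also called with REML or gene-by-gene array weights (adjusted p = 0.000468 and 0.0134) and with a replicate block (0.0171). SOD1-mutant array 1 was the lowest of its group on all 5 Scn9a probe sets, the untested one included, and cord array 2 was the lowest of its group on all 5.

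**Figure D2:**
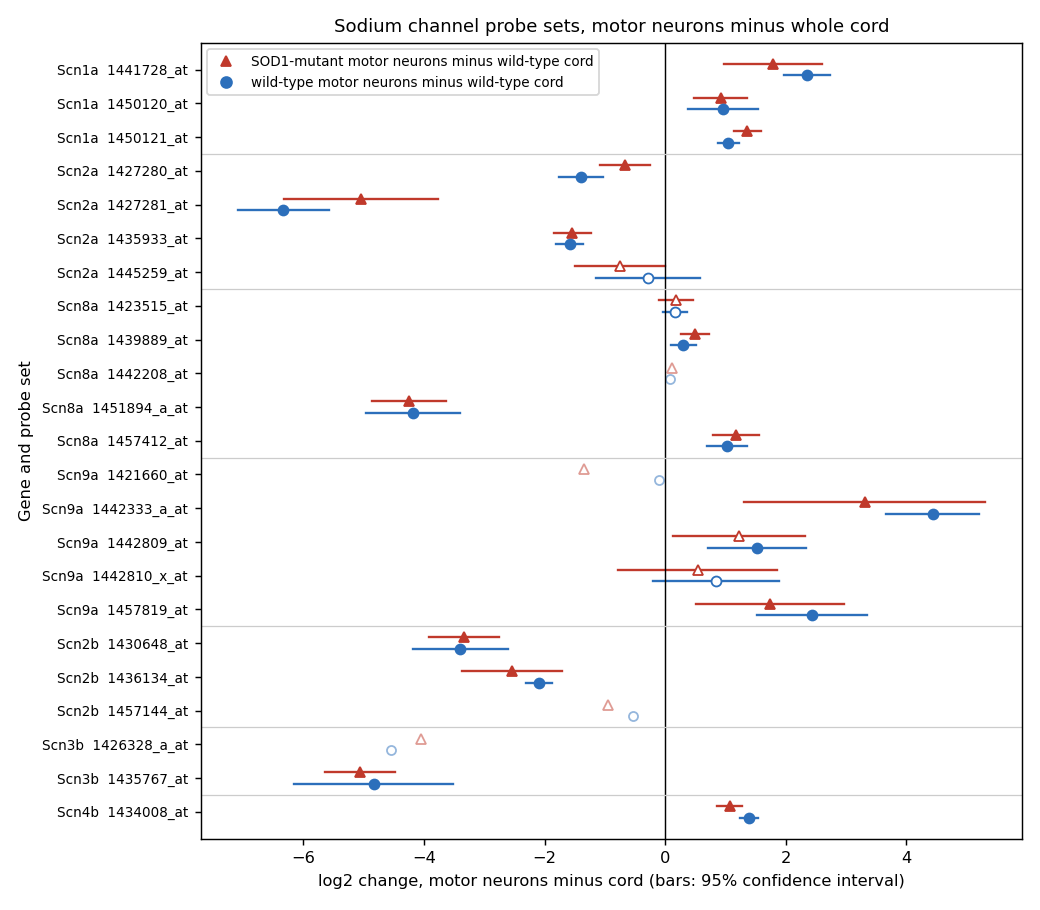
Log2 difference from whole cord of each sodium channel probe set, with SOD1-mutant motor neurons drawn above wild-type motor neurons. Points are limma estimates with 95% intervals, filled where called at an adjusted p under 0.05 and open where not, and pale open points without a bar were not tested. Scn1a and Scn4b lay right of 0, Scn2b and Scn3b left of it, and Scn8a on both sides, from -4.18 to 1.03 in wild-type motor neurons.

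Among the beta subunits, Scn4b was higher in motor neurons and Scn2b and Scn3b were lower. Scn4b had a single probe set, 1434008_at, with 48957.5, 51927 and 50418 in SOD1-mutant motor neurons, 60169.5, 63985 and 64749 in wild-type motor neurons and 24278, 24285 and 23436 in cord. The 3 groups did not overlap, wild-type motor neurons being the highest. The log2 difference from cord was 1.07 ± 0.09 in SOD1-mutant motor neurons (2.10-fold, adjusted p = 1.98e-05) and 1.39 ± 0.07 in wild-type motor neurons (2.62-fold, adjusted p = 6.17e-07).

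Scn2b, the other disulphide-linked subunit, moved the opposite way. Its brightest probe set, 1436134_at, had 1257, 3977 and 3067 in SOD1-mutant motor neurons, 3551, 3255 and 3480 in wild-type motor neurons and 13914, 15684 and 14275 in cord. Both captured groups lay below every cord array, and SOD1-mutant array 1 was the lowest of all. SOD1-mutant motor neurons were 5.83-fold lower than cord (adjusted p = 0.000402) and wild-type motor neurons 4.24-fold lower (adjusted p = 4.92e-07). On 1430648_at the neurons were 10.1-fold lower in the mutant (adjusted p = 1.27e-05) and 10.5-fold lower in wild type (adjusted p = 3.64e-05), with captured arrays at 249.7 to 774 and cord at 4404 to 4961.

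Scn3b was near background in motor neurons. On 1435767_at SOD1-mutant motor neurons had 88.4, 164 and 150.4, wild-type motor neurons 39.6, 364 and 218 and cord 5315, 4876 and 4880. All 3 SOD1-mutant arrays and 1 of 3 wild-type captured arrays lay below background. SOD1-mutant motor neurons were at least 24.0-fold lower than cord (adjusted p = 2.18e-06), and wild-type motor neurons were called lower (adjusted p = 0.000101), with no fold given because array 1 was below background. The second probe set, 1426328_a_at, was not tested because of the filter. It had 16.3, 19.5 and 74.6 in SOD1-mutant and 10.7, 9.67 and 32.6 in wild-type motor neurons, all below background, against 928, 848 and 742 in cord, which puts SOD1-mutant motor neurons at least 4.09-fold and wild-type motor neurons at least 5.37-fold lower.

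The genes Scn2b and Scn4b are neighbours on chromosome 9 in RefSeq order, with no protein-coding gene between them, and lie 61 protein-coding genes from Scn3b. Their windows around the start, on the plus strand of GRCm38.p6 at chr9:45138374-45138673 for Scn4b and chr9:45117626-45117925 for Scn2b, are shown because these adjacent genes moved in opposite directions. Capitals mark ATTGG, the letters CCAAT on the other strand.
Scn4b: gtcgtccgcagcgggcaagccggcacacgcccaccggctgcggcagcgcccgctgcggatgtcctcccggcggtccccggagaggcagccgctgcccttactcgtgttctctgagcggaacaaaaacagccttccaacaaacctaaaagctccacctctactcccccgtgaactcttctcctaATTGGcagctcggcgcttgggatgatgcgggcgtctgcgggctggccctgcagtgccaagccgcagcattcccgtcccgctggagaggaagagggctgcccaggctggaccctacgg
Scn2b: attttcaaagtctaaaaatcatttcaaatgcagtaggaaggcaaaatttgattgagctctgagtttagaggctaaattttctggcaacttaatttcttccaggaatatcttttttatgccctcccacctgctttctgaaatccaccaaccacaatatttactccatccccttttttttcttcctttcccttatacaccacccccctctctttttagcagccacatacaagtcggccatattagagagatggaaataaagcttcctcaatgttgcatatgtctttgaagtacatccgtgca

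The Scn4b window was rich in G and C, at 66.3% with 26 CpG dinucleotides, and held the CCAAT letters 67 bases before the start. The Scn2b window had 38.3% G and C with 2 CpG and held none of the letters searched. Windows were found for 6 of the 7 genes, 8 in all, and the only other match was TATAAA 84 bases before the second Scn2a start.

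Differences between 2 bright probe sets of the same array do not move when all its intensities are multiplied by 1 factor, although quantile normalisation can move them. The brightest Scn8a probe set minus the brightest Scn2a probe set averaged 2.82 ± 0.33 in SOD1-mutant motor neurons, 2.85 ± 0.12 in wild-type motor neurons and 1.10 ± 0.04 in cord (log2, SD, n = 3 each). The shift from cord was 1.72, or 3.29-fold, in SOD1-mutant motor neurons and 1.75, or 3.35-fold, in wild-type motor neurons, without overlap. The sign of this shift depends on the Scn8a probe set. On Scn8a 1451894_a_at the log2 difference from cord was -4.25 in the mutant and -4.18 in wild type. On the brightest Scn2a probe set it was -1.54 and -1.58. For Scn4b minus Scn2b the means were 4.33 ± 0.82 in SOD1-mutant motor neurons, 4.19 ± 0.11 in wild-type motor neurons and 0.72 ± 0.09 in cord, and the shift from cord was 3.61 in the mutant and 3.48 in wild type. For Scn3b minus Scn2b they were -4.06 ± 0.45 in SOD1-mutant motor neurons, -4.29 ± 1.45 in wild-type motor neurons and -1.54 ± 0.15 in cord. Scn3b was below background on all 3 SOD1-mutant arrays and on wild-type captured array 1, so the size of these last differences depends on the pseudocount. The shift from cord ran from -2.67 to -2.04 in the mutant and from -2.93 to -2.26 in wild type over other pseudocounts and with values raised to background. The 2-sided exact permutation p was 0.1 for each of the 6 shifts from cord (0.15 after adjustment over 9 tests), and 0.1 is the smallest that 3 arrays against 3 allow. The zero point of such a difference has no meaning, since intensities of different probe sets cannot be set against each other.

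**Figure D3:**
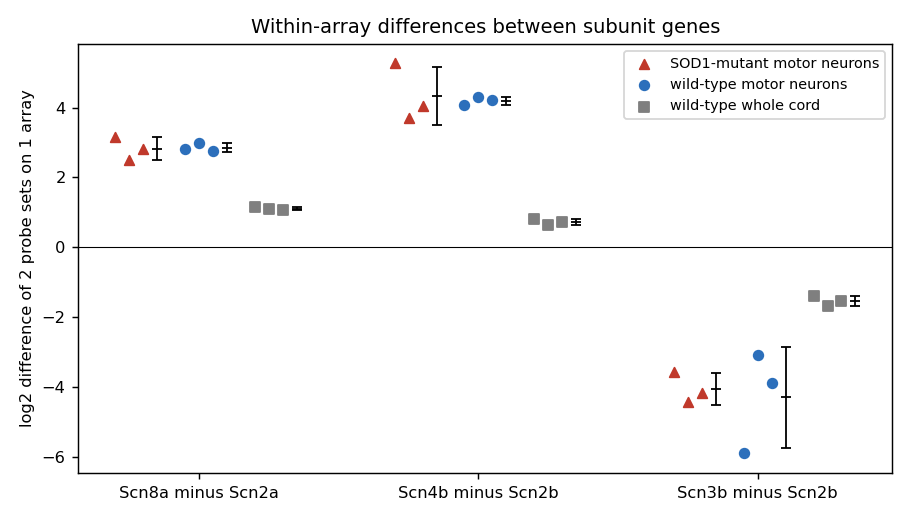
Within-array log2 differences between the brightest probe sets of 2 genes, for Scn8a minus Scn2a, Scn4b minus Scn2b and Scn3b minus Scn2b. Points are arrays with SOD1-mutant motor neurons on the left, wild-type motor neurons next and cord on the right, and black bars are the mean ± SD. Neurons and cord did not overlap in any panel, and the captured groups overlapped in all 3.

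The scale of the arrays affects the balance of calls against cord. The median log2 difference of all tested probe sets in SOD1-mutant motor neurons was -0.37 as deposited, 0.12 after quantile normalisation and 0.48 with arrays centred on their medians. In wild-type motor neurons it was -0.35 as deposited, 0.13 after quantile normalisation and 0.56 after centring. In SOD1-mutant motor neurons 8 sodium channel probe sets were called higher and 6 lower under all 3 scalings, where 20.0% of all tested probe sets were called higher and 18.7% lower. In wild-type motor neurons 9 were called higher and 7 lower under all 3, where the shares of all probe sets were 22.1% higher and 19.4% lower. The exceptions in wild type were Scn2a 1445259_at, Scn8a 1423515_at and Scn9a 1442810_x_at.

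**Figure D4:**
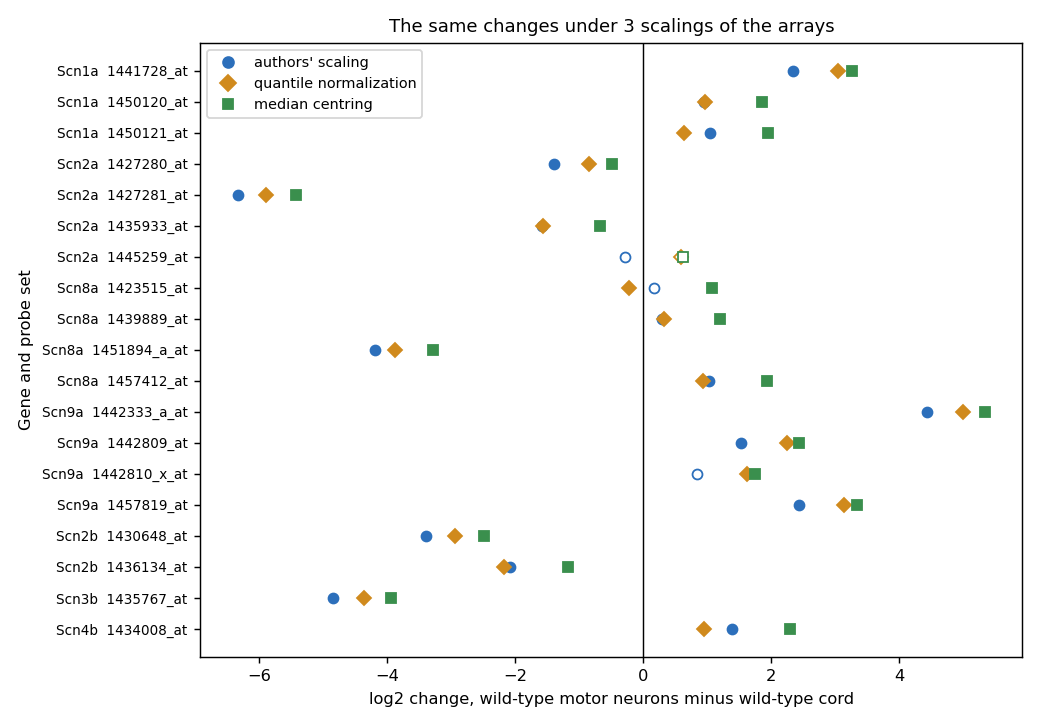
Log2 difference of wild-type motor neurons from cord for the tested sodium channel probe sets under the deposited scaling, quantile normalisation and median centring. Points are single probe sets, filled where called at an adjusted p under 0.05. Scn1a, Scn9a and Scn4b stayed right of 0 and Scn2b and Scn3b left of it under each scaling, and Scn8a 1423515_at and Scn2a 1445259_at, which was called under none, crossed 0.

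SOD1-mutant and wild-type motor neurons showed no called difference in any of the 19 probe sets. Over all tested probe sets, 0.152% were called higher and 0.0703% lower in the mutant. At an unadjusted p under 0.05 the limma fit counted 3 of the 19, where 15.2% of all probe sets reached it, and the arrays of the groups did not overlap for 4 of 19, where 22.3% of all did not. The median log2 difference was -0.07 over the 19 and -0.01 over all. With array weights estimated gene by gene, an alternative chosen after seeing the data, 2 were called higher and 1 lower, where 8.75% of all tested probe sets were called higher and 10.7% lower.

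The 3 probe sets with an unadjusted p under 0.05 belonged to Scn1a, Scn2a and Scn4b. Scn1a 1450121_at was 1.24-fold higher in SOD1-mutant motor neurons, a log2 difference of 0.31 ± 0.11 with a 95% interval of 0.07 to 0.55 (adjusted p = 0.218). Scn2a 1427280_at was 1.66-fold higher, with 0.73 ± 0.25 and an interval of 0.19 to 1.28 (adjusted p = 0.208). Scn4b was 1.25-fold lower, with -0.32 ± 0.11 and an interval of -0.56 to -0.08 (adjusted p = 0.208). In these 3 and in Scn8a 1439889_at, with 0.20 ± 0.14 and an interval of -0.11 to 0.51 (adjusted p = 0.537), the 2 groups did not overlap. The gene-by-gene weights called the first 3 (adjusted p = 0.0106 for Scn1a, 0.0119 for Scn2a and 0.0106 for Scn4b), with a weight of 2.83 on SOD1-mutant array 3 and 4.32 on wild-type captured array 3 and at most 0.663 on the others. Of the other probe sets of these genes, Scn1a 1441728_at had -0.56 ± 0.33 (interval -1.28 to 0.17) and Scn1a 1450120_at -0.03 ± 0.29 (interval -0.68 to 0.61). Scn2a 1435933_at had 0.04 ± 0.18 (interval -0.36 to 0.43), 1445259_at -0.47 ± 0.46 (interval -1.48 to 0.54) and 1427281_at, below background on 2 mutant and all 3 wild-type arrays, 1.29 ± 1.17 (interval -1.30 to 3.89).

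For the remaining genes the intervals show what these arrays leave undetermined. The brightest Scn8a probe set differed by 0.01 ± 0.14, with an interval of -0.30 to 0.32 (adjusted p = 0.983). That of Scn9a differed by -1.13 ± 0.73, with an interval of -2.73 to 0.47 (adjusted p = 0.489), and SOD1-mutant array 1 gave 210 where the other captured arrays gave 1897 to 2842. That of Scn2b differed by -0.46 ± 0.35, with an interval of -1.24 to 0.32 (adjusted p = 0.566). Scn3b, near background in both groups, differed by -0.23 ± 0.78, with an interval of -1.94 to 1.49 (adjusted p = 0.916). The within-array differences gave -0.03 for Scn8a minus Scn2a, 0.14 for Scn4b minus Scn2b and 0.23 for Scn3b minus Scn2b, with exact permutation p values of 0.9, 1 and 0.9. One astrocyte marker of 8, Gja1, the gap junction protein connexin 43, was called higher in the mutant by 1.25 ± 0.15 (adjusted p = 0.017), and the summed astrocyte markers were 115017 to 131527 in SOD1-mutant against 89037 to 100308 in wild-type motor neurons. Their part in the sodium channel values was not tested.

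**Figure D5:**
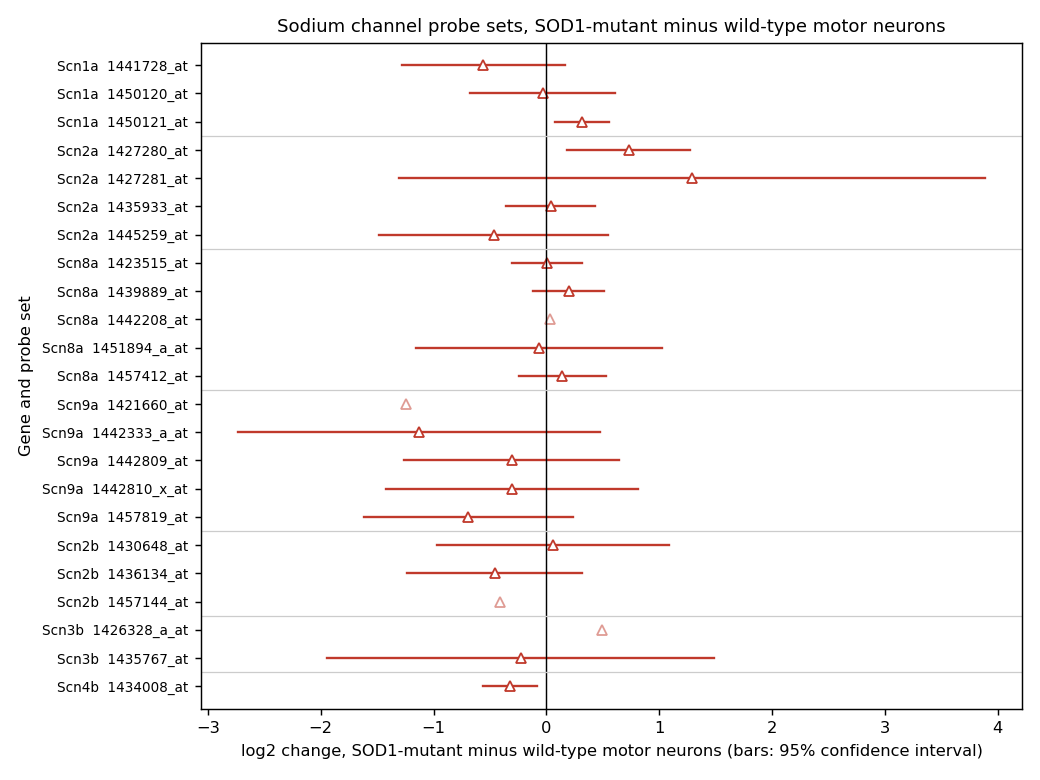
Log2 difference of SOD1-mutant from wild-type motor neurons for each sodium channel probe set, with 95% intervals of the limma fit. All points are open because none was called, and pale points without a bar were not tested. The narrowest intervals belong to bright probe sets such as Scn4b, and Scn2a 1427281_at, near background in both groups, has the widest.

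Most markers of other cell types were lower on the captured arrays than in cord. The summed markers of other neurons were 20389 to 35180 in SOD1-mutant motor neurons, 20924 to 23806 in wild-type motor neurons, against 127037 to 133748 in cord, with Lhx1 below background in both captured groups and Lhx5 in the mutant. Markers called lower than in cord in wild-type motor neurons came to 9 of 9 for other neurons, 7 of 8 for astrocytes, 7 of 7 for oligodendrocytes, 8 of 8 for microglia, 6 of 6 for vessels and meninges and 1 of 2 for Schwann cells. In SOD1-mutant motor neurons they came to 8 of 9, 7 of 8, 6 of 7, 8 of 8, 6 of 6 and 1 of 2 in the same order. The summed Schwann cell markers overlapped, at 78704 to 84050 in SOD1-mutant motor neurons, 78587 to 100168 in wild-type motor neurons and, in cord, 85774 to 120968. Oligodendrocyte markers summed to 293811 to 321115 in SOD1-mutant motor neurons, 252148 to 263993 in wild-type motor neurons, against 537883 to 632019 in cord. Sodium channel genes, Scn1a among them, are also expressed by interneurons of the cord. The part of the lower interneuron signal in the channel differences was not tested.

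Of 8 other sodium channel genes, 5 had a probe set annotated to them alone, of which the brightest was read, and 4 were tested: 1 was called higher and 2 lower in SOD1-mutant motor neurons against cord, with a median log2 difference of -1.79, and in wild-type motor neurons none was called higher and 2 lower, with a median of -1.99. Scn3a, an alpha subunit most abundant before birth, had 691, 620 and 530 in SOD1-mutant motor neurons, 299, 637 and 635 in wild-type motor neurons and 1428, 1598 and 1811 in cord. It was 2.58-fold lower in SOD1-mutant (adjusted p = 0.00053) and 3.15-fold lower in wild-type motor neurons (adjusted p = 0.00138). Scn7a, a sodium-sensing channel of glia and other cells, had 93.6, 114 and 199 in SOD1-mutant motor neurons, 19.1, 195 and 70.1 in wild-type motor neurons and 4053, 1366 and 2644 in cord, and was called lower in SOD1-mutant (adjusted p = 8.29e-05) and wild-type motor neurons (adjusted p = 0.000186). The brightest probe set of Nalcn, the sodium leak channel, had 19811, 13819 and 16632 in SOD1-mutant motor neurons, 12083, 11459.5 and 11148 in wild-type motor neurons and 10187, 12008 and 11278 in cord. On it the mutant neurons were called higher than cord (0.57 ± 0.15, adjusted p = 0.00879), the wild-type ones were not (0.05, adjusted p = 0.623), and the captured groups did not pass the test against each other (0.52 ± 0.16, adjusted p = 0.17). The other Nalcn probe set was called lower than cord in both, 1.95-fold in SOD1-mutant (adjusted p = 0.0112) and 2.31-fold in wild-type motor neurons (adjusted p = 0.000592), so the direction for this gene depended on the probe set.

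Genes whose products anchor or modify these channels at initial segments and nodes also moved both ways. Of 25 listed genes 20 were tested by their brightest probe set, and 11 were called higher and 5 lower in SOD1-mutant motor neurons against cord, with a median log2 difference of 0.60 against -0.37 over all probe sets. In wild-type motor neurons 9 were called higher and 7 lower, with a median of 0.31 against -0.35 over all. None was called between the captured groups, with a median of 0.11 against -0.01 over all. Under other settings these genes were counted together with the 4 tested other sodium channel genes. REML array weights called 18, where 23.1% of all probe sets were called higher and 27.9% lower. Gene-by-gene weights called 10, where 8.75% and 10.7% were. Without SOD1-mutant array 2, 1 was called, where 0.167% and 0.0962% were. The balance of calls against cord depended on the choice of probe set. Of all 62 tested probe sets of these 20 genes, 16 were called higher and 32 lower in SOD1-mutant motor neurons against cord. In wild-type motor neurons 14 were called higher and 33 lower. Over all tested probe sets, 21.9% were called higher and 40.2% lower in the mutant, and 24.0% higher and 41.5% lower in wild type. Probe sets of 1 gene were called both ways for 7 genes in the mutant and for 5 in wild type, Cntnap2, Fgf12, Fgf14, L1cam and Sptbn1 in both. Among the brightest probe sets, the largest rise in wild-type motor neurons was that of S100a10, an annexin-binding protein that carries some sodium channels to the membrane (9.01-fold, adjusted p = 2.8e-06). Its size depended on the probe set. The other S100a10 probe sets were called 3.16-fold and 3.12-fold higher in wild-type motor neurons than in cord (adjusted p = 0.000151 and 0.000784). Cntnap2, an axonal adhesion protein of the juxtaparanode, was 3.52-fold higher on its brightest (adjusted p = 5.35e-07) and 13.2-fold lower on another (adjusted p = 0.000678). Fgf11 and Fgf14, intracellular factors of the FGF homologous group that bind the channel's C-terminus, were 2.76-fold and 2.14-fold higher on their brightest probe sets. On 2 other Fgf14 probe sets wild-type motor neurons were 4.12-fold and 4.25-fold lower (adjusted p = 0.000168 and 0.000354), and on untested probe sets they were at least 2.5-fold lower for Fgf14 and at least 2.67-fold lower for Fgf11. Sptan1, the alpha spectrin of the membrane skeleton, was 2.33-fold higher.

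Among the brightest probe sets, the largest falls in wild-type motor neurons were those of Nfasc and Fgf13. Nfasc, the adhesion protein neurofascin, was 3.07-fold lower (adjusted p = 5.07e-06), with a mean of 14535 in SOD1-mutant motor neurons, 9042 in wild-type motor neurons and 27583 in cord. Fgf13, another FGF homologous factor, was 2.49-fold lower (adjusted p = 1.31e-05). Camk2d, a kinase that phosphorylates the channel, was 2.42-fold lower (adjusted p = 0.000293), Cntn2, a juxtaparanodal adhesion protein, 1.95-fold lower (adjusted p = 4.17e-05) and Nedd4, a ubiquitin ligase, 1.70-fold lower (adjusted p = 4.4e-05). Ank3, the ankyrin that anchors the channels, was 1.84-fold lower in SOD1-mutant (adjusted p = 0.000351) and 1.44-fold lower in wild-type motor neurons (adjusted p = 0.000745), with a mean of 32040 in SOD1-mutant motor neurons, 41000.1 in wild-type motor neurons and 58806 in cord. On other probe sets wild-type motor neurons were further below cord, 15.4-fold for Ank3 (adjusted p = 2.79e-06) and 5.65-fold for Nedd4 (adjusted p = 5.12e-07). The adhesion protein L1cam was 1.75-fold higher on its brightest probe set (adjusted p = 9.79e-05) and at least 8.43-fold lower on another (adjusted p = 0.000251). On the brightest probe sets in the mutant against cord, Camk2d was not called (adjusted p = 0.055), and the other genes named here for their brightest probe set were called in the same direction.

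Across the 9 arrays, the genes whose log2 values ran closest to each member were counted among 12324 genes, each by its brightest probe set. Scn4b ran closest to Cpne6 and Fbxo2 (Pearson r = 0.998 for both), Scn1a to Hoxc10 and Nupl1 (0.997 and 0.996), and Scn9a to Ccdc107 and Ankrd33 (0.988 and 0.986). Scn2a ran closest to Aldh5a1 and Sv2a (0.996 for both), Scn2b to St3gal2 and Jph3 (0.997 and 0.995) and Scn3b to Tspan9 and Trp53bp2 (0.996 and 0.994). The arrays fall into captured neurons and cord, so such values mostly follow that division: 971 genes exceeded 0.95 with Scn4b and 1009 with Scn1a. Scn8a, whose brightest probe set did not follow it, had 1 gene over 0.95, Fam98b (0.960), followed by Map2k6 (0.927).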

How the data were processed

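Signal was measured on 9 Affymetrix mouse expression arrays. Groups came from the sample descriptions and replicate numbers from the titles. The deposited values are linear intensities, 1 per probe set, made by software not given in the sources used here. Every array had a trimmed mean of 2500 with 2% taken off each end, so the arrays were scaled before deposit. The 64 control probe sets were left out. The members and gene lists were chosen with earlier results of these data known.

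A pseudocount of 20.3, the value at the 10th percentile over all arrays, went into the log2, which understates fold changes of dim probe sets. The 27022 probe sets tested had a mean log2 value over the groups above the 40th percentile. Each comparison was fitted on its 6 arrays with limma 3.58.1 in R 4.3.3 (lmFit, then eBayes with an intensity trend). Tests were two-sided, with p adjusted by Benjamini-Hochberg at 0.05, and the fit was tested on simulated data with 200 changed probe sets. For SOD1-mutant against wild-type motor neurons it recovered 13% of log2 changes of size 1 and 59% of those of size 2. Changes of this size between the captured groups could therefore be missed. A change is given as "at least" where a group was below background on all its arrays, against the higher of background and signal on each array. Other genes were read by their brightest probe set, with up to 5 called genes of largest change named in each direction. The number of arrays limits the precision. Within-array differences were compared by exact permutation in scipy 1.17.1, and figures drawn with matplotlib 3.10.9 in Python 3.11.15. Gene symbols, gene order and promoter windows are from RefSeq for GRCm38.p6. Alternatives covered scaling, filter, pseudocount, samples in the fit, array weights, a replicate block and leaving out each array. Same-numbered arrays of the 2 captured groups had deviations correlated at 0.145, 0.171 and 0.00228, against -0.185 to 0.0635 for differently numbered ones. With a replicate block, 226 probe sets were called higher and 217 lower between these groups, against 41 and 19 without it. The numbers were not taken to pair arrays in the main fit, and whether they mark a shared batch was not tested.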

Additional observations from a re-analysis of the deposited data

How the results depend on the processing

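Of the 338 probe set values recomputed for each comparison, 326 kept their call for SOD1-mutant against wild-type motor neurons, 315 for SOD1-mutant motor neurons against cord and 326 for wild-type motor neurons against cord. The absence of calls between the captured groups depended on array weights: 4 sodium channel probe sets were called higher and 5 lower with REML weights, whose estimation did not converge (23.1% and 27.9% of all probe sets), and 2 higher (Scn1a 1450121_at and Scn2a 1427280_at) and 1 lower (Scn4b) with gene-by-gene weights, chosen after seeing the data. Those REML weights were 5.47 for SOD1-mutant array 3 and 10.8 for wild-type captured array 3 and at most 0.429 for the others, so these calls rest mainly on 1 array a group. The replicate block left no sodium channel probe set called between the captured groups. With it 0.836% of all probe sets were called higher and 0.803% lower there. Under the block Scn9a 1442810_x_at was called higher in wild-type motor neurons than in cord (0.84, adjusted p = 0.0171). The block changed no other sodium channel call. Direction turned for Scn8a 1423515_at in wild-type motor neurons against cord under quantile normalisation (-0.22) and for Scn2a 1427280_at in SOD1-mutant motor neurons against cord under median centring (0.18), and the cause was not tested. Within arrays, the differences between captured groups had no stable sign: leaving out 1 array gave -0.20 to 0.13 (0.04 among them) for Scn8a minus Scn2a, -0.33 to 0.45 for Scn4b minus Scn2b and -0.57 to 0.83 (-0.018 among them) for Scn3b minus Scn2b, and averaging all probe sets of each gene gave -0.048 for Scn4b minus Scn2b. Leaving out 1 array gave 6 to 10 probe sets called higher than in cord (18.9% to 24.9% of all probe sets) and 7 called lower (33.9% to 43.4% of all). The filter, the pseudocount and the fit of all 9 arrays changed those counts by less than 1.5 times. Signal near background limits Scn3b, Scn9a in cord and Scn2a 1427281_at.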

Other observations

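Cord array 2 was the lowest cord array on all 5 Scn9a probe sets and also for Scn10a and Scn11a, channels of peripheral sensory neurons, and for Scn7a. Scn11a had 4267, 202 and 2368 on the 3 cord arrays, Scn10a had 447, 275 and 321, and Scn7a had 4053, 1366 and 2644. The summed markers of vessels and meninges ran the same way on these arrays, at 161210, 66047 and 114345, and those of Schwann cells, Pmp22 and Ncmap, at 120968, 85774 and 98322. Motor neuron markers kept this order too, at 22856, 15804 and 20162, as did microglia markers, at 56218, 50303.5 and 52433. The markers of other neurons did not, at 127717, 133748 and 127037. Neither did those of astrocytes, at 335873, 342792 and 316425, nor of oligodendrocytes, at 585356, 632019 and 537883. These lists were compared with the channels after their values were seen, and no test was made over 3 arrays.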
